A study of Mus musculus with 37 samples.

Results

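A set of 10 genes that mark epithelial or mesenchymal cells was followed in the RNA of 37 mouse tailbuds. The genes were taken by symbol from a count table of 35542 genes, and all 10 were found. The epithelial genes were Epcam, Cdh1, Cldn6, Krt8 and Krt18, and the mesenchymal genes were Cdh2, Snai1, Zeb2, Fn1 and Vim. The series compared somite-matched embryos to learn what loss of maternal SMCHD1, a chromatin protein with a role in gene silencing, does to expression in the tissue that builds the body axis. Both groups were F1 embryos of C57BL/6 mothers and Castaneus (Cast) fathers, collected at E8-8.5 with 6 to 11 somites. Smchd1wt embryos were Smchd1 fl/+, a floxed and otherwise working maternal allele, from mothers without a Cre transgene. Smchd1matdel embryos were Smchd1 del/+, from Smchd1 del/fl mothers in which MMTV-Cre removed the gene in the oocyte, so that neither the oocyte nor the maternal allele supplied SMCHD1. The comparison therefore includes zygotic heterozygosity, and no heterozygous embryo from a wild-type oocyte was among these libraries. Each library was a tailbud of a single embryo. Which embryos shared a litter was not given, so p-values measure the spread between these embryos.

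Epithelial cells hold each other through E-cadherin and tight junctions and carry a keratin skeleton. Mesenchymal cells have left that sheet, and typically use N-cadherin, a vimentin skeleton and a fibronectin matrix. In the tail end of the embryo cells of the epiblast pass through the primitive streak and tailbud and become mesoderm, a step known as an epithelial to mesenchymal transition (EMT). Snail and Zeb transcription factors are known to repress E-cadherin during it. Gut endoderm, visceral endoderm and surface ectoderm in or around the tail end are epithelia as well. In bulk tissue, fewer cells of a type and less RNA per cell cannot be told apart.

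There were 21 Smchd1wt embryos (13 females and 8 males) and 16 Smchd1matdel embryos (11 females and 5 males). At 6, 7, 8, 9, 10 and 11 somites the Smchd1wt groups held 4, 4, 3, 3, 4 and 3 embryos and the Smchd1matdel groups 4, 3, 2, 2, 3 and 2. The males among them were 0, 3, 2, 1, 1 and 1 in Smchd1wt and 0, 2, 0, 0, 2 and 1 in Smchd1matdel. Libraries ranged from 0.916 to 80.6 in units of 1e6 counts (median 12.8). Smchd1 itself, which the paternal copy still supplies in the deleted embryos, was at 105 to 202 CPM (median 150, n = 21) in Smchd1wt and at 64.6 to 113 CPM (median 91.0, n = 16) in Smchd1matdel embryos, ranges that met only at their ends. A ribosomal RNA locus took 1.82% and 2.77% of counts in a pair of Smchd1matdel libraries of 6 somites, and 0.176% to 1.28% in the other 35. The labelled tissue was checked on 7 tailbud markers, T, Nkx1-2, Cdx2, Wnt3a, Fgf8, Tbx6 and Msgn1, which were counted in every library and summed to 494 to 1232 CPM (counts per 1e6 counts, scaled by TMM, edgeR's normalisation). The 6 somite markers summed to 2.20 to 74.2 CPM (median 19.8). Pax1 was at 0 in all 37 libraries and Uncx in 34, while Foxc1 was counted in every library (up to 29.1 CPM) and Meox1 in all but 1 (up to 39 CPM).

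The keratins had the highest levels of the epithelial set and moved together, so their promoters are printed in full, from the RefSeq table for GRCm38.p6. Each runs from 250 bases before to 50 bases after the annotated start, 5′ to 3′ on the gene's strand. The Krt8 promoter is chr15:102004293-102004592 on the minus strand and the Krt18 promoter is chr15:102027966-102028265 on the plus strand. Capitals mark CACCTG, an E-box that Snail and Zeb factors are known to bind. It was searched on both strands as CACCTG and CAGGTG.
Krt8 promoter: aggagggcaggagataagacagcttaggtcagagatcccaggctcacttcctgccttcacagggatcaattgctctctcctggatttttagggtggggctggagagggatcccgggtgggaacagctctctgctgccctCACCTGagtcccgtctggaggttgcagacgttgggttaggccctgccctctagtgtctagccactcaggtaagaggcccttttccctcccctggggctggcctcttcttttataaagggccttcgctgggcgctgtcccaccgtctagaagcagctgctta
Krt18 promoter: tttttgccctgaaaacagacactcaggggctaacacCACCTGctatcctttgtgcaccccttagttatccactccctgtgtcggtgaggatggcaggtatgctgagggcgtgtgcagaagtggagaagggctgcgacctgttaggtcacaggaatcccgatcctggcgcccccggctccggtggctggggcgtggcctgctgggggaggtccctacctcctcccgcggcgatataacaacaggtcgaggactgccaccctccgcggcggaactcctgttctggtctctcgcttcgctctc

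The table held 10 promoters of 7 of the genes (4 of them for Zeb2), and Cdh1, Cdh2 and Fn1 had none in it. The E-box was in 5 of these 10 promoters, those of the 4 epithelial genes in the table and that of Snai1. It occurred in 20.2% of all 32851 promoters of this length. Counted from the RefSeq start, the E-box began at base -111 in Krt8 and at base -214 in Krt18. Epcam and Cldn6 had it at 2 places each, as did 2.88% of all promoters at 2 or more. The stretches around the E-boxes of these other promoters are given to show their setting, again in the gene's direction with the E-box in capitals.
Epcam, base -187 (chr17:87635780-87635809): gccagtagggccCACCTGctggaggaccgg
Epcam, base -19 (chr17:87635948-87635977): acccataaaaccCAGGTGtggaggagaagc
Cldn6, base -93 (chr17:23679260-23679289): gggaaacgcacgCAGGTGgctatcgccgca
Snai1, base -126 (chr2:167538057-167538086): gcagcccaggcgCACCTGctccggtctcag

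The other Cldn6 match began at base 41 after the start. No match was found in the windows of Vim and Zeb2. The RefSeq starts are not all the same as the ends of the gene spans given below. By those spans the Krt8 match and the Cldn6 matches lie inside the gene, as does the whole window of Vim. A negative base number is thus upstream of the RefSeq start, which need not be upstream of the gene. A match describes the letters of a window and does not show that a factor binds there.

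Every one of the 10 genes passed the filter on low counts in each fit. The lowest count of any of them in a library was 10, for Snai1. Epcam is on chromosome 17 (87635979 to 87651129, plus strand, GRCm38), as is Cldn6 (23679249 to 23682446, plus strand). Cdh1 is on chromosome 8 (106603351 to 106670246, plus strand), and Cdh2 on chromosome 18. Krt8 (101996698 to 102004482, minus strand) and Krt18 (102028180 to 102032027, plus strand) are neighbours on chromosome 15, 23.7 kb apart and transcribed away from each other. Chromosome 2 holds Snai1 (167538195 to 167542814, plus strand), Zeb2 (44983632 to 45117395, minus strand) and Vim (13573927 to 13582826, plus strand). Fn1 is on chromosome 1 (71585520 to 71653200, minus strand). Whether counting used the strand was not stated. Genes on the other strand cover 5.16% of the exon bases of Krt8 (Gm36026), 3.27% of Zeb2 (Zeb2os) and 2.50% of Fn1 (Apol7d), so those counts carry that uncertainty.

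Both sets were well represented in the same tissue. Levels between genes were compared per length, as RPKM (CPM divided by the length in kb of all annotated exons of the gene, merged). Krt8 had the highest median, 93.2 RPKM, followed by its partner Krt18 with 87.0 RPKM, which together build the filaments of simple epithelia. Fn1, the matrix protein fibronectin, had a median of 80.3 RPKM and Cldn6, a tight junction claudin of early epithelia, 66.1 RPKM. Vim was at 38.4 RPKM, Epcam, a surface adhesion molecule of epithelia, at 26.3 RPKM, Cdh2 (N-cadherin) at 19.3 RPKM and Cdh1 (E-cadherin) at 17 RPKM. The transcription factors were lowest, with Snai1 at 13.2 RPKM and Zeb2 at 2.90 RPKM. Neighbours in this order had overlapping ranges over the 37 embryos with a single exception. Snai1 ranged from 6.07 to 19.7 RPKM and Zeb2 from 1.80 to 3.82 RPKM.

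**Figure D1:**
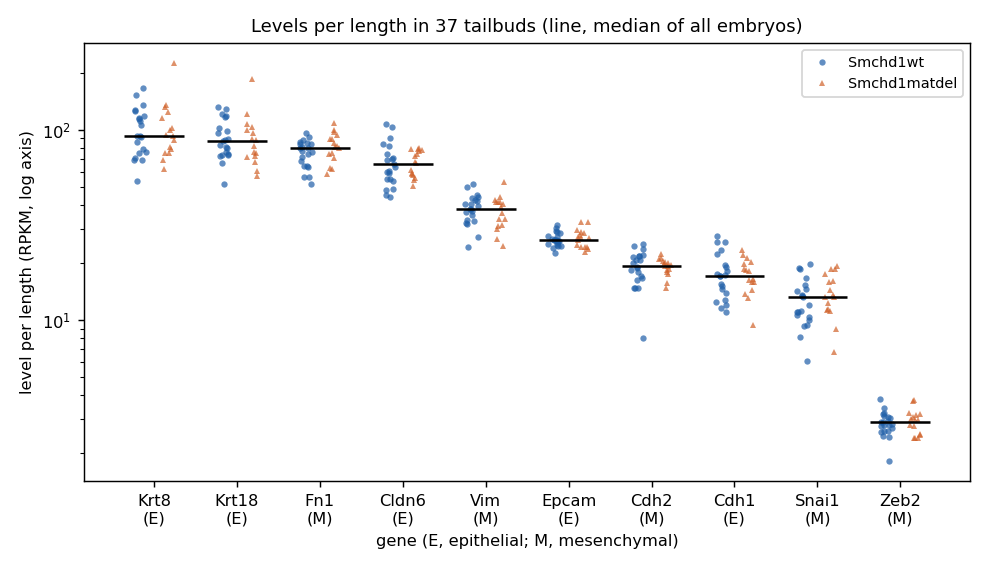
Level per length of each gene (RPKM, log axis) in 21 Smchd1wt embryos (circles) and 16 Smchd1matdel embryos (triangles), with the median of all 37 embryos as a line. Genes are ordered by median from Krt8 (93.2) to Zeb2 (2.90), and the points of the genotypes overlap in each gene.

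The genes differed in how much they varied between embryos. Epcam varied least, with a coefficient of variation over all embryos of 9.66%, and lay between 49.1 and 71.8 CPM. Krt8 varied most, at 32.8%, then Krt18 (28%), Snai1 (27.2%), Cdh1 (25.1%) and Cldn6 (22.2%). Vim (18.6%), Fn1 (17.1%), Cdh2 (17%) and Zeb2 (14.7%) were between these and Epcam.

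To see how the epithelial genes moved as the axis extended, their slope on somite number was fitted in the Smchd1wt embryos. Cdh1 fell. It was at 88.9, 82.6, 80.0 and 117 CPM at 6 somites, at 101, 68.9, 77.8 and 117 CPM at 7 somites and at 127, 86.3 and 77.6 CPM at 8 somites. At 9 somites it was at 78.9, 58.4 and 63.2 CPM, at 10 somites at 107, 66.8, 70.8 and 56.5 CPM, and at 11 somites at 52.9, 50.2 and 54.8 CPM. All 3 embryos of 11 somites were below the lowest of the 11 embryos of 6 to 8 somites, and replicate 1 of 10 somites stood among the early values. The slope of Cdh1 was -0.15 log2 per somite (SE 0.035, 95% confidence interval -0.22 to -0.074, adjusted p = 0.0122, edgeR's quasi-likelihood test), or 0.60-fold from 6 to 11 somites. It was past the threshold of 0.05 under each of the 6 other settings and without any single embryo of the 21.

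Krt8, Krt18 and Cldn6 also had negative slopes, which missed the threshold in edgeR's test over all Smchd1wt embryos, while DESeq2 called Krt8 (adjusted p = 0.0158) and Krt18 (adjusted p = 0.0261). Krt8 went from a median of 227 CPM (range 140 to 298, n = 11) at 6 to 8 somites to 153 CPM (105 to 325, n = 10) at 9 to 11 somites, with a slope of -0.13 (SE 0.040, adjusted p = 0.0517). Krt18 went from 142 CPM (106 to 184) to 109 CPM (74.5 to 189), with a slope of -0.10 (SE 0.034, adjusted p = 0.0613). Cldn6 went from 122 CPM (102 to 178) to 93.4 CPM (76.6 to 185), with a slope of -0.099 (SE 0.036, adjusted p = 0.102). In each of these the ranges of the windows overlapped, and the highest value of the later window came from replicate 1 of 10 somites. The slope of Epcam was near 0. Its medians were 57.4 CPM (52.3 to 68.9) and 57.4 CPM (49.1 to 67.1), and its slope was 0.0022 (SE 0.017, 95% confidence interval -0.032 to 0.037, adjusted p = 0.961).

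Over the 10 genes, edgeR thus called 1 in the Smchd1wt slope, against 6.61% of the 15667 genes tested (3.55% falling and 3.06% rising). In edgeR's test 5 had an unadjusted p under 0.05, against 21.4%. DESeq2 called 3 (Cdh1, Krt8 and Krt18). The share of all genes called by DESeq2 or under other settings is not given here, so those counts have no background beside them. The edgeR calls other than Cdh1 also changed with single libraries. Without Smchd1wt replicate 1 of 10 somites 4 genes were called, Cdh1, Krt8 (slope -0.16, adjusted p = 0.0024), Krt18 (-0.13, adjusted p = 0.0059) and Cldn6 (-0.13, adjusted p = 0.0084). Krt8 and Krt18 were called with Cdh1 when replicate 2 of 6 somites, replicate 3 of 7 somites or replicate 2 of 8 somites was left out, and Krt18 with Cdh1 without replicate 2 of 7 somites. The median slope of the 5 epithelial genes was -0.10 and that of all genes tested -0.0018.

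**Figure D2:**
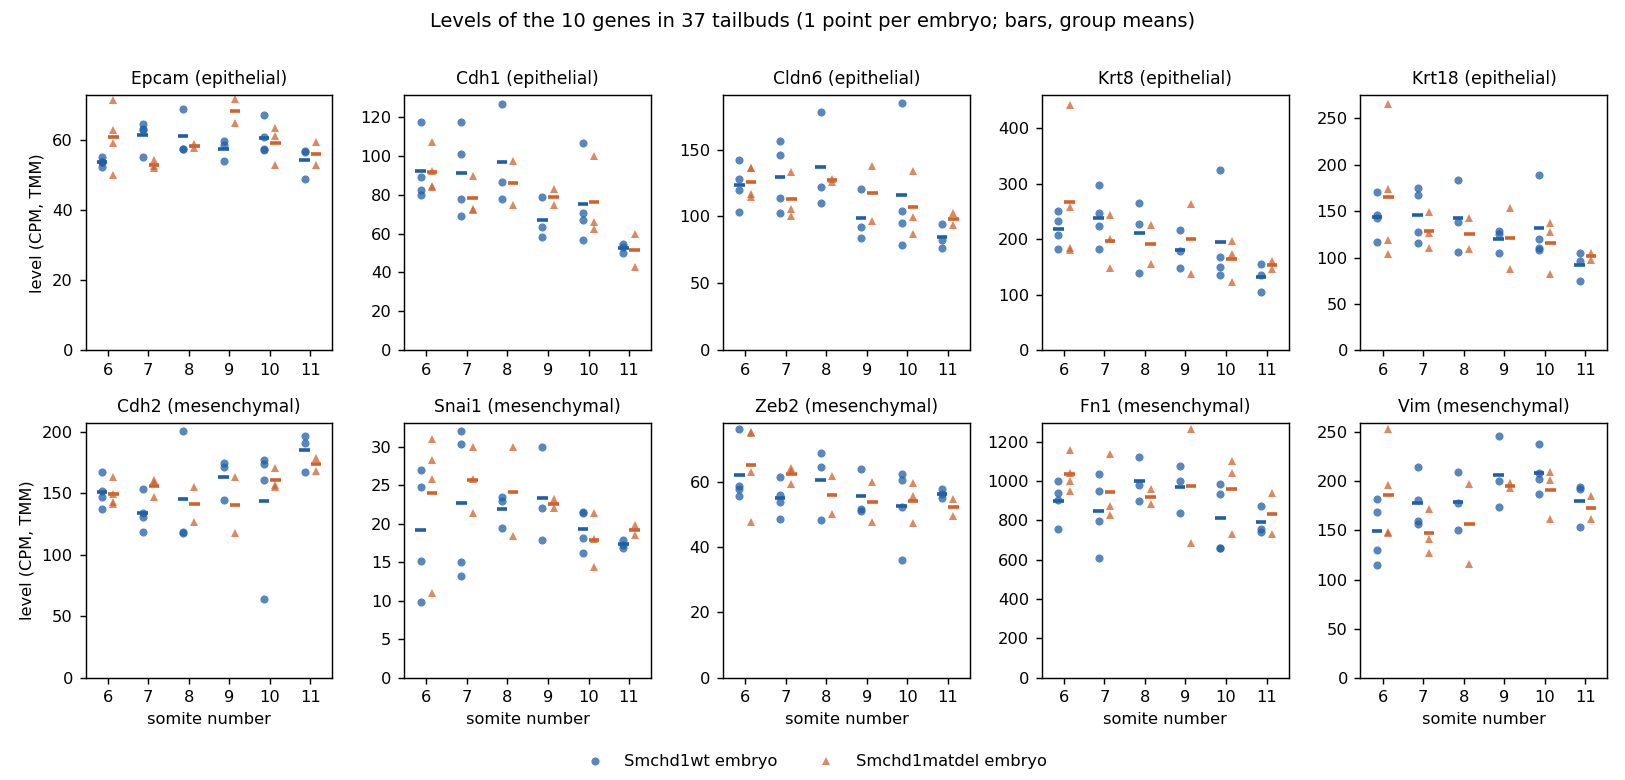
Level of each gene (CPM, linear axis from 0) by somite number, with 1 point per embryo (circles Smchd1wt, triangles Smchd1matdel) and group means as bars. The mean of Cdh1 over 9 to 11 somites (65.9 CPM in Smchd1wt, 69.7 CPM in Smchd1matdel) is below that over 6 to 8 somites (93.1 and 85.9 CPM), and the Smchd1wt embryo of 10 somites with 64.4 CPM of Cdh2 lies far below its group.

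In the Smchd1matdel embryos the same 4 epithelial genes had negative slopes. Cdh1 was at 107, 92.4, 83.8 and 84.4 CPM at 6 somites, at 89.7, 72.1 and 72.6 CPM at 7 somites and at 74.4 and 97.2 CPM at 8 somites. It was then at 82.7 and 74.9 CPM at 9 somites, at 66.0, 99.7 and 62.3 CPM at 10 somites and at 42.9 and 59.7 CPM at 11 somites. Both embryos of 11 somites were again below all 9 embryos of 6 to 8 somites. The slopes were -0.11 for Cdh1 (SE 0.037, adjusted p = 0.143), -0.14 for Krt8 (SE 0.054, adjusted p = 0.170), -0.13 for Krt18 (SE 0.049, adjusted p = 0.166) and -0.061 for Cldn6 (SE 0.029, adjusted p = 0.286), and 0.021 for Epcam (SE 0.024, adjusted p = 0.719). By edgeR's quasi-likelihood test 0 of the 10 genes were called, against 2.95% of 16222 genes (1.1% falling and 1.85% rising), with 5 at an unadjusted p under 0.05 (17.1% of all genes) and 0 called by DESeq2. Without replicate 2 of 10 somites, Cdh1 was called (slope -0.13, adjusted p = 0.0147). In the 7 other settings the Krt8 slope ran from -0.18 to -0.067 and the Krt18 slope from -0.17 to -0.054. The Cdh1 slope ran from -0.12 to -0.094 and that of Cldn6 from -0.074 to -0.048, so the keratin slopes depended most on the setting.

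The difference in slope between genotypes was tested itself. It was -0.036 for Krt8 and Krt18, 0.023 for Cdh1, 0.021 for Cldn6 and 0.0057 for Epcam, and -0.074 to -0.0050 for the mesenchymal genes. In edgeR's quasi-likelihood test 0 of 10 genes were called (0% of all genes), with 0 at an unadjusted p under 0.05 (3.67% of all genes) and 0 called by DESeq2. The 95% confidence intervals of the 10 differences lay within -0.21 and 0.13 log2 per somite.

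**Figure D3:**
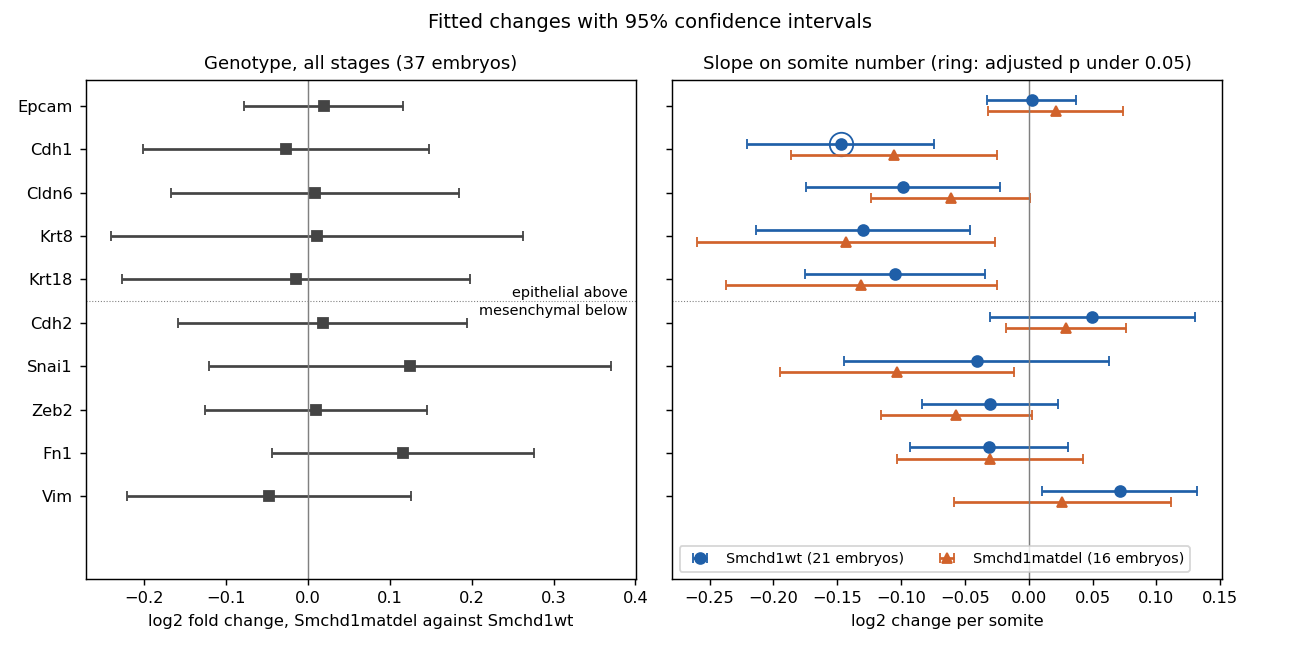
Left, log2 fold change of Smchd1matdel against Smchd1wt over all stages. Right, log2 change per somite in each genotype. Bars are 95% confidence intervals, and the ring marks Cdh1 in Smchd1wt, the slope past the threshold, while the genotype intervals of all 10 genes cross 0.

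RNA of the endoderm moved over the same stages. The 10 visceral endoderm markers (among them Afp, Apoa1, Apob and Ttr) summed to 588 to 5040 CPM (median 1708) in Smchd1wt embryos of 6 to 8 somites and to 32.6 to 4145 CPM (median 245) at 9 to 11 somites. In Smchd1matdel embryos the sums were 694 to 2362 CPM (median 1483) and 49.3 to 3781 CPM (median 219). Their slopes in Smchd1wt were negative for 10 of 10, with 3 called as falling by edgeR (Apob, Dab2 and Ttr), against 3.55% of all genes. Apoa4 and Fgb were each at 0 in 1 library, and the other 8 were counted in every library. The 8 gut endoderm markers went from a median sum of 218 CPM (146 to 434) to 112 CPM (70.7 to 386) in Smchd1wt. Of them 3 were called as falling (Spink1, Sox17 and Hnf4a), against 3.55% of all genes, and Foxa1 was called as rising, as were 3.06% of all genes. Hnf4a (0.121 to 132 CPM), Trf (3.71 to 124 CPM) and Spink1 (1.81 to 100 CPM) had the widest ranges of this list over all 37 libraries. Whether the fall of this sum was separate from that of the visceral endoderm sum was not tested. The surface ectoderm markers, which mark another epithelium, had median sums of 54.6 and 50.8 CPM in the same windows. By edgeR 0 of 6 were called, against 6.61% of all genes, and 2 had an unadjusted p under 0.05, against 21.4% of all genes. Smchd1wt replicate 1 of 10 somites, the embryo with late high values of Cdh1, Cldn6 and the keratins, had a visceral endoderm sum of 4145 CPM, against 170 to 672 CPM in the other 3 of its group. Smchd1matdel replicate 2 of 10 somites, with 99.7 CPM of Cdh1, had a sum of 3781 CPM, against 49.7 and 219 CPM.

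Within groups the endoderm sums went with some epithelial genes more than with others. With the mean of each genotype and somite group removed, the log2 visceral endoderm sum had r = 0.70 with Cdh1 (Spearman's rho 0.71, adjusted p = 0.0015 and 0.0030, permutation test over 37 embryos) and r = 0.69 with Cldn6 (rho 0.68, adjusted p = 0.0087 and 0.0074). Without the 2 embryos farthest from the median sum, r was 0.60 and 0.59. For Krt8 r was 0.45 (rho 0.44, adjusted p = 0.107 and 0.10, permutation test), and for Epcam 0.15 (rho 0.17, adjusted p = 0.667 and 0.613, permutation test). The gut endoderm sum had r = 0.82 with Cdh1 (rho 0.76, adjusted p = 0.0015 and 0.0030, permutation test). With Cldn6 it had r = 0.82 (rho 0.78, adjusted p = 0.0017 and 0.0030, permutation test), and with Krt8 and Epcam 0.43 and 0.20. Whether these relations of the gut sum were separate from those of the visceral sum was not tested. Cdh2 went against the visceral sum (r = -0.54, adjusted p = 0.030, permutation test) and the gut sum (r = -0.66, adjusted p = 0.015, permutation test). The other mesenchymal genes had no adjusted p under 0.05 with either. Krt8 went with other sums. Its r was 0.55 with the surface ectoderm sum (rho 0.58, adjusted p = 0.0208 and 0.015, permutation test) and -0.74 with the notochord and node sum (rho -0.70, adjusted p = 0.00867 and 0.0074, permutation test), and for Krt18 these were 0.55 and -0.70. The p-values were adjusted over 100 relations of 10 marker sums with the 10 genes. The part of RNA of these tissues in the slopes of the epithelial genes was not tested.

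**Figure D4:**
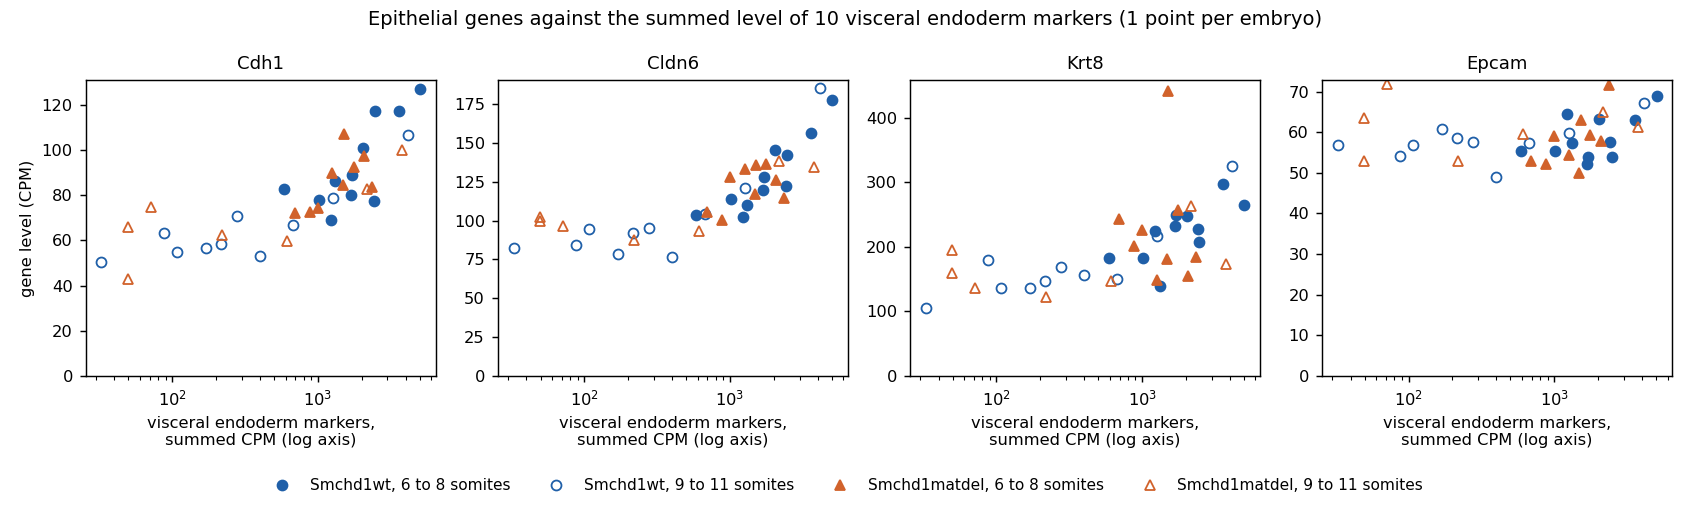
Level of Cdh1, Cldn6, Krt8 and Epcam (CPM) against the summed CPM of 10 visceral endoderm markers (log axis) in each embryo, with early embryos filled and late embryos open. Cdh1 and Cldn6 are high where the sum is high, including the late Smchd1wt embryo at 4145 CPM, while Epcam stays between 49.1 and 71.8 CPM across the whole range.

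Over the stages 0 of the 5 mesenchymal genes were called in Smchd1wt by edgeR or by DESeq2, and 1 of 5 (Vim) had an unadjusted p under 0.05, against 21.4% of all genes. Vim, the intermediate filament of mesenchyme, had Smchd1wt medians of 169 CPM (115 to 215) at 6 to 8 somites and 197 CPM (153 to 246) at 9 to 11 somites, and a slope of 0.071 (SE 0.029, adjusted p = 0.148). Cdh2, the N-cadherin of mesoderm and neural tissue, had medians of 137 CPM (118 to 201) and 173 CPM (64.4 to 197), and a slope of 0.050 (SE 0.038, adjusted p = 0.490). The ranges overlapped for both. Fn1 had a slope of -0.031 (SE 0.029, adjusted p = 0.589), with medians of 939 and 856 CPM. Snai1, the Snail factor of the primitive streak, had medians of 22.9 CPM (9.83 to 32) and 18 CPM (16.2 to 30.0), and a slope of -0.041 (SE 0.049, adjusted p = 0.690). Zeb2, which acts with Snail factors on E-cadherin, had medians of 57.9 and 55.6 CPM and a slope of -0.030 (SE 0.025, adjusted p = 0.532). The spread of Snai1 was wider early than late, with an SD of 7.25 CPM (n = 11) and 4.11 CPM (n = 10) in the windows, a difference that was not tested. In Smchd1matdel the slopes were 0.026 (Vim), 0.029 (Cdh2), -0.031 (Fn1), -0.10 (Snai1) and -0.057 (Zeb2), with adjusted p-values of 0.214 to 0.791.

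Genotypes were then compared at matched somite number. The levels of the 10 genes in Smchd1matdel and Smchd1wt embryos overlapped in every gene, and the fitted log2 fold changes over all stages were small. Among epithelial genes they were 0.019 for Epcam (SE 0.048), -0.027 for Cdh1 (SE 0.085), 0.0081 for Cldn6 (SE 0.086), 0.011 for Krt8 (SE 0.12) and -0.015 for Krt18 (SE 0.10). Among mesenchymal genes they were 0.018 for Cdh2 (SE 0.087), 0.12 for Snai1 (SE 0.12), 0.010 for Zeb2 (SE 0.066), 0.12 for Fn1 (SE 0.078) and -0.047 for Vim (SE 0.085). By edgeR's quasi-likelihood test 0 of 10 were called, against 0.0136% of 14733 genes, with 0 at an unadjusted p under 0.05 (5.66% of all genes) and 0 called by DESeq2. The smallest adjusted p was 0.866, for Fn1. For Epcam the 95% confidence interval was -0.078 to 0.12, and the widest intervals were those of Snai1, -0.12 to 0.37, and Krt8, -0.24 to 0.26.

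The series reads 6 to 8 and 9 to 11 somites as separate windows, and neither showed a call. At 6 to 8 somites the fold changes of the epithelial genes were all negative, -0.13 for Cdh1 to -0.029 for Krt18, and those of the mesenchymal genes ran from -0.021 for Vim to 0.22 for Snai1, with 0 of 10 called (0.0069% of all genes). At 9 to 11 somites they ran from -0.069 (Krt18) to 0.077 (Epcam) and from -0.10 (Vim) to 0.14 (Fn1), with 0 of 10 called (0.00671%). In both windows 0 of the 10 had an unadjusted p under 0.05 in edgeR's test, against 8.13% and 1.75% of all genes, and DESeq2 called 0. The visceral endoderm markers had the same signs as most of the epithelial genes in these windows. Their genotype log2 fold changes were negative for 10 of 10 at 6 to 8 somites (median -0.59) and positive for 10 of 10 at 9 to 11 somites (median 1.33), with 0 called by edgeR and 3 and 0 at an unadjusted p under 0.05. Their part in the signs of the epithelial genes was not tested. The difference between the windows was 0.16 for Cdh1 (SE 0.17) and -0.27 for Snai1 (SE 0.24), and 0 of 10 were called by edgeR (0%), with 0 at an unadjusted p under 0.05 (3.36% of all genes) and 0 by DESeq2.

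At single stages 0 of 10 were called at each of the 6 somite numbers (0% of all genes at each), by edgeR's quasi-likelihood test or by DESeq2. These fits held no sex term, so sex was not separated from genotype where the share of males differed. The only genes at an unadjusted p under 0.05 were Epcam and Cdh2 at 7 somites, where 4.83% of all genes were. At 6, 8, 9, 10 and 11 somites 0 of the 10 were, against 5.54%, 2.81%, 1.15%, 0.56% and 8.66% of all genes. At 6 somites the fold changes of all 5 epithelial genes were positive (0.0056 for Cdh1 to 0.30 for Krt8), unlike those of the window that holds this stage. The Krt8 medians there were close, 221 CPM in Smchd1matdel and 220 CPM in Smchd1wt, with the highest Smchd1matdel embryo at 442 CPM. For Krt18 they were 146 and 144 CPM, with a highest Smchd1matdel value of 265 CPM. At 7 somites the visceral endoderm markers had negative fold changes in 10 of 10 (median -1.08), with 10 at an unadjusted p under 0.05 and 0 called by edgeR. Epcam was at 63.3, 64.6, 55.4 and 63.0 CPM in the Smchd1wt embryos of 7 somites and at 54.5, 52.8 and 52.1 CPM in the Smchd1matdel embryos. All 3 were below all 4, and the fitted change was -0.21 on the log2 scale (edgeR, SE 0.088, adjusted p = 0.962). At 9 somites the order was the opposite, with 59.7, 58.6 and 54.1 CPM in Smchd1wt and 64.9 and 71.8 CPM in Smchd1matdel embryos. Cdh2 at 7 somites was at 134, 131, 154 and 118 CPM and at 161, 159 and 148 CPM, which overlapped, and the fitted change was 0.21 on the log2 scale (edgeR, SE 0.094, adjusted p = 0.962).

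The contrast of the sets was described for each embryo by the mean log2 CPM of the 5 epithelial genes minus that of the 5 mesenchymal genes. Since the genes were chosen, it carries no test. In Smchd1wt it averaged -0.046, 0.013, -0.12, -0.47, -0.19 and -0.63 at 6 to 11 somites in turn, and in Smchd1matdel -0.12, -0.31, -0.16, -0.24, -0.34 and -0.51. The least squares slopes were -0.10 and -0.057 per somite. The epithelial part had slopes of -0.096 and -0.082, and the mesenchymal part 0.0084 and -0.025. The mesenchymal mean joins genes with slopes of either sign, since in both genotypes Vim and Cdh2 had positive and Snai1, Zeb2 and Fn1 negative slopes. The stage-averaged difference of Smchd1matdel from Smchd1wt was -0.064, beside an SD within groups of 0.31. It was -0.010 without Smchd1wt replicate 1 of 10 somites and -0.11 without Smchd1matdel replicate 1 of 9 somites. The difference was -0.15 at 6 to 8 somites and 0.042 at 9 to 11 somites, and the latter was 0.17 and -0.060 without the same 2 embryos in turn.

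The cadherins showed the contrast in a single pair of genes. The ratio of Cdh1 to Cdh2 in RPKM had a median of 1.03 (0.757 to 1.89, n = 11) in Smchd1wt embryos of 6 to 8 somites and 0.618 (0.450 to 2.92, n = 10) at 9 to 11 somites. It was over 1 in 7 of 11 early embryos and in 1 of 10 late embryos, which was replicate 1 of 10 somites. Without that embryo the late ratios ran from 0.450 to 0.964. Where a ratio lies against 1 depends on the exon lengths used, 4.57 kb for Cdh1 and 8.07 kb for Cdh2. Before division by length, the median over all 37 embryos was 77.8 CPM for Cdh1 and 155 CPM for Cdh2. In Smchd1matdel embryos the medians were 1.04 (0.798 to 1.33, n = 9) and 0.751 (0.422 to 1.24, n = 7), with ratios over 1 in 5 of 9 and in 2 of 7.

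Beyond stage and genotype, the genes covaried between embryos of the same group. With group means removed, all 10 pairs of epithelial genes had a positive r (0.23 to 0.96, median 0.51), and 6 had an adjusted p under 0.05 over the 45 pairs. The keratin partners were closest. Krt8 and Krt18 had r = 0.96 (rho 0.95, adjusted p = 0.00015 for both, permutation test over 37 embryos), and r = 0.95 without the 2 farthest embryos. Cdh1 and Cldn6, parts of the adherens and the tight junction, had r = 0.84 (rho 0.75, adjusted p = 0.000225 and 0.00045, permutation test). Epcam had the lowest values with the other epithelial genes, 0.23 to 0.39.

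The mesenchymal genes did not form such a set. Their 10 pairs ran from -0.56 to 0.69, and 6 were positive. Cdh2 went with Zeb2 (r = 0.69, rho 0.64, adjusted p = 0.0023 and 0.0034, permutation test) and against Vim (r = -0.42, rho -0.55, adjusted p = 0.0032 and 0.0049, permutation test). Zeb2 and Vim had r = -0.56 (rho -0.49, adjusted p = 0.0082 and 0.035, permutation test). Across the sets, Vim went with the keratins. For Vim and Krt8 r was 0.76 (rho 0.76, adjusted p = 0.00015 for both, permutation test). For Vim and Krt18 r was 0.78 (rho 0.79, adjusted p = 0.00015 for both, permutation test). The allantois and amnion marker sum had r = 0.63 with Vim (rho 0.63, adjusted p = 0.00867 and 0.0129, permutation test), 0.52 with Krt8 (rho 0.47, adjusted p = 0.0171 and 0.0401, permutation test) and 0.43 with Krt18 (rho 0.41, adjusted p = 0.0465 and 0.084, permutation test), and its part in these relations was not tested. Igf2 held most of this marker sum, with a median of 1655 CPM beside a median of 1835 CPM for the sum. The other markers in it had medians of 2.24 CPM (Hoxa13) to 58.4 CPM (Bmp4). Cdh2 and Zeb2 went against the epithelial genes. For Krt8 with Zeb2 r was -0.75 (rho -0.65, adjusted p = 0.0011 and 0.0034, permutation test), and for Krt8 with Cdh2 -0.74 (rho -0.76, adjusted p = 0.000525 and 0.00063, permutation test). Cldn6 and Cdh2 had r = -0.75 (rho -0.64, adjusted p = 0.0027 and 0.0034, permutation test), and -0.59 without the 2 farthest embryos. Snai1 and Fn1 had no pair with an adjusted p under 0.05. CPM values share a library total, and depth or tissue content that varies between embryos was not separated from these relations.

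**Figure D5:**
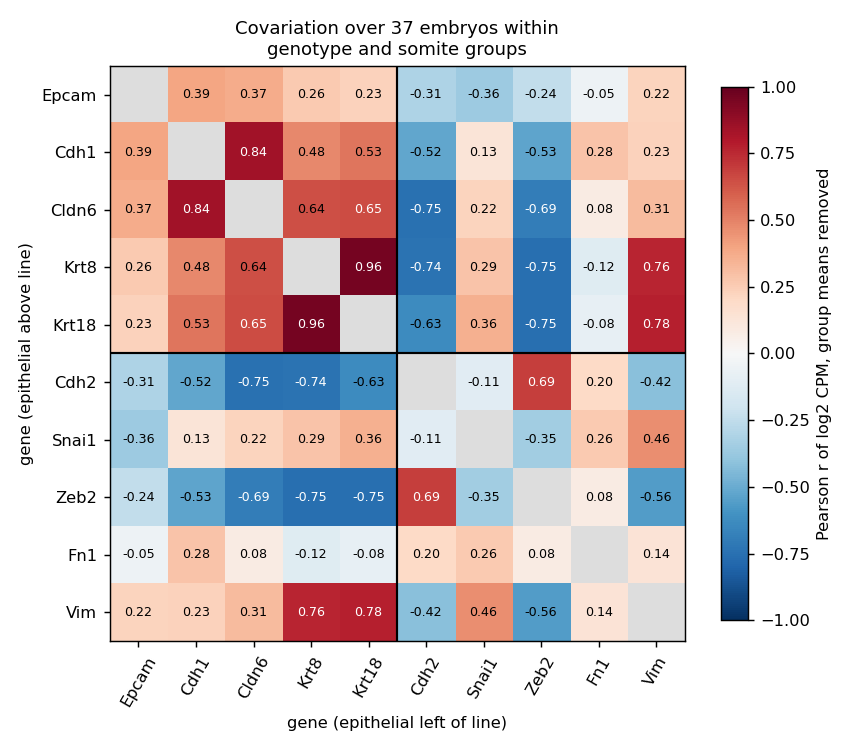
Pearson r of log2 CPM for each pair of genes over 37 embryos after the mean of each genotype and somite group was removed, with epithelial genes above and left of the lines. The epithelial block is positive throughout (0.23 to 0.96), the mesenchymal block is mixed, and Vim is positive with Krt8 (0.76) and Krt18 (0.78) while Cdh2 and Zeb2 are negative with all 5 epithelial genes.

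Further genes of the same cell states were examined in the Smchd1wt slope, in which 6.61% of all genes were called and 21.4% had an unadjusted p under 0.05. Of 22 other genes of epithelial junctions and polarity, 2 fell and 2 rose. Cgn, the tight junction protein cingulin, fell from 37.1 ± 8.35 CPM (SD, n = 11) at 6 to 8 somites to 25.5 ± 9.92 CPM (SD, n = 10) at 9 to 11 somites (slope -0.17, adjusted p = 0.0241), and Dsg2, a desmosomal cadherin, from 73.2 ± 8.68 to 58.2 ± 8.13 CPM (slope -0.088, adjusted p = 0.0313). Dsc2, its desmosomal partner, rose from 78.0 ± 11.3 to 98.4 ± 17.5 CPM (slope 0.11, adjusted p = 0.0113), and Perp, also of desmosomes, from 9.18 ± 1.55 to 12.8 ± 1.56 CPM (slope 0.14, adjusted p = 0.0048). The median slope of these 22 genes was -0.044, with 15 negative. Of 15 epithelial regulators and surface proteases 14 had a negative slope (median -0.077) and 1 was called, the protease inhibitor Spint1, which fell from 64.1 ± 9.67 to 50.8 ± 7.54 CPM (slope -0.11, adjusted p = 0.0058). Spint1 also fell in Smchd1matdel (slope -0.11, adjusted p = 0.0387), and Dsc2 also rose there (slope 0.17, adjusted p = 0.0158). Of the 5 catenins, which link cadherins to the cytoskeleton, Ctnnd2 fell (slope -0.17, adjusted p = 0.0424), from 3.85 ± 1.38 to 2.76 ± 0.744 CPM.

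Among the other EMT transcription factors, such as Snai2, Zeb1, Twist1 and Prrx1, 9 of 10 were tested and 0 were called by edgeR, with 2 of 9 at an unadjusted p under 0.05, near the share over all genes, and a median slope of 0.024. Of 20 mesenchymal adhesion, matrix and protease genes 1 rose and 2 fell, with a median slope of 0.030. Fbn2, a fibrillin of the matrix, rose from 62.9 ± 10.1 to 95.3 ± 17.8 CPM (slope 0.17, adjusted p = 0.0020), and Itga4, an integrin subunit that binds fibronectin, fell from 32.8 ± 5.48 to 19.7 ± 5.61 CPM (slope -0.22, adjusted p = 0.0010). S100a4 fell from 1.60 ± 2.42 to 0.048 ± 0.097 CPM (slope -1.35, adjusted p = 0.0090), a low level with a median of 0.068 CPM in Smchd1wt. Between genotypes over all stages 0 genes of these 5 lists were called by edgeR, against 0.0136% of all genes. There were 6 at an unadjusted p under 0.05, against 5.66% of all genes. The lists held 22 tested junction and polarity genes, 15 regulators, 9 EMT factors, 19 mesenchymal genes and 5 catenins. The median log2 fold changes of these lists were 0.015, 0.032, -0.027, -0.072 and 0.035 in turn, beside 0.0026 over all genes.

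The genes most like each of the 10 over all 37 embryos were named by Pearson's r of log2 CPM, which includes stage and genotype and is given as a description. Closest to Cdh1 were Dpp4 (0.91), Prss8 (0.91) and Slc39a4 (0.91), and closest to Cldn6 were Slc7a7 (0.93), Ctsb (0.93) and Pqlc2 (0.92). Krt8 and Krt18 were each other's closest gene (0.96), followed for both by Tbrg1 (0.92 for both) and Llgl2 (0.89 for both). Llgl2 is an epithelial polarity gene and Prss8 an epithelial surface protease. For Epcam the highest values were lower, with Coa4 (0.66), C1galt1c1 (0.61) and Cavin1 (0.61). Cdh2 was closest to Smarcc1 (0.92), Zfp518b (0.89) and Msh6 (0.89), and Zeb2 to Robo1 (0.79), Cse1l (0.79) and Btaf1 (0.78). Fn1 was closest to Sec16a (0.84), Ubr4 (0.83) and Dsp (0.82), Vim to Sema3f (0.80), Jun (0.79) and Dysf (0.79), and Snai1 to Gdf1 (0.79), Cers1 (0.78) and Il17d (0.76). The genes closest to Snai1 were low, with medians of 6.87, 7.22 and 1.42 CPM and lowest counts of 1, 1 and 0 in turn. Cldn6 ranked 29 in likeness to Cdh1.

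Sex was a term in the fits. Males against females, the 5 epithelial genes had log2 differences of 0.028 (Epcam) to 0.21 (Cldn6 and Krt8), and the mesenchymal genes of -0.13 (Zeb2) to 0.033 (Vim). By edgeR's quasi-likelihood test 0 of 10 were called, against 0.217% of all genes, and 1 had an unadjusted p under 0.05 (3.26% of all genes), Cldn6 (SE 0.10). The visceral endoderm markers were positive in males against females in 10 of 10 (median 0.81), with 0 called by edgeR and 0 at an unadjusted p under 0.05, and their part was not tested.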

How the data were processed

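Per the labels and the methods, the authors made poly(A) RNA libraries (TruSeq, stranded or unstranded, which library received which not stated) from single tailbuds and sequenced 75 bp single ends. Reads were trimmed, aligned to GRCm38.p6 and counted per gene in SeqMonk; the submitters' processing notes name Trim Galore 0.4.4 and HISAT2 2.0.5. The deposited values are raw counts, 1 column per embryo.

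Of 35591 rows, 49 with a repeated identifier were dropped. Counts were tested with edgeR 4.0.16 (quasi-likelihood test, TMM, filterByExpr with a minimum count of 10) in R 4.3.3, two-sided, with Benjamini-Hochberg adjustment over all genes tested and a threshold of 0.05. Genotype models held somite number as a factor and sex, single stages genotype alone, and slope models somite number as a number and sex. The 95% confidence intervals used the residual degrees of freedom. DESeq2 1.42.0, RLE size factors, no filter, no sex term, females alone, a replicate block, and leaving out single embryos or doubtful libraries were alternatives. Scores used log2 CPM with a prior count of 2, and correlations used 100000 permutations within groups. The tests were also run on simulated data with changes larger than any fitted for the 10 genes. Those runs therefore do not show whether changes of the size seen here would be found, and no result of them is used. Genes named beyond the 10 were, at most 3 per direction, those called in their list with the smallest adjusted p, or the 3 with the highest r to each gene. The members and lists were chosen with earlier results of these data known.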

Additional observations from a re-analysis of the deposited data

Results flagged for a closer look

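In the 4 groups of 4 embryos, 52 sets of values were tested with Dixon's test at the 95% level, the 10 genes and the scores in each group. These share embryos and are not independent. Of them 3 held an embryo far from the rest, where chance gives about 1 in 20. Cdh2 in Smchd1wt replicate 1 of 10 somites was at 6.01 log2 CPM (64.4 CPM), against 7.33 to 7.47 in the other 3 embryos. The same embryo had an epithelial minus mesenchymal difference of 0.72, against -0.52 to -0.46. Epcam in Smchd1wt replicate 3 of 7 somites was at 5.79 log2 CPM (55.4 CPM), against 5.98 to 6.02.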

How the results depend on the processing

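Of 1464 recomputed values of 49 results, 1368 kept their direction and side of the threshold, or their size; 68 reversed, 18 passed the threshold newly and 10 moved. In Smchd1wt the count of genes with a called slope was 3 with DESeq2 and 3 with the replicate block (Cdh1, Krt8 and Krt18 in both), 4 in females alone and 1 to 4 leaving out single embryos, and in Smchd1matdel 0 to 1. The shares of all genes called under these settings are not given here. The genotype score difference at 6 to 8 somites was -0.48 in per-gene z-scores, a different unit. Genotype log2 fold changes near 0 changed sign: with the replicate block Krt8 (-0.0062) and Vim (0.026), with no sex term Cldn6 (-0.0028) and Krt8 (-0.0016), in females alone Cdh1 (0.030), Cdh2 (-0.026) and Zeb2 (-0.015), without the ribosomal RNA rich pair Epcam (-0.0028), Cldn6 (-0.016) and Krt8 (-0.10), and without the shallowest library Zeb2 (-0.0045). The cause was not tested. Leaving out single embryos, they ranged from -0.0061 to 0.030 (Epcam), -0.065 to 0.019 (Cdh1), -0.034 to 0.050 (Cldn6), -0.071 to 0.061 (Krt8), -0.087 to 0.019 (Krt18), -0.031 to 0.056 (Cdh2) and -0.017 to 0.030 (Zeb2), and the Epcam slope in Smchd1wt from -0.0031 to 0.018. The genotype score difference over all stages ranged from -0.11 to -0.010, at 6 to 8 somites from -0.20 to -0.12 and at 9 to 11 somites from -0.060 to 0.17. Whether replicate numbers paired the embryos stayed undecided. Of 16 same-numbered pairs 4 had deviations correlated over 0.1 (-0.29 to 0.65), and own numbers correlated best in 6. Both pairs of 9 somites were positive (0.65 and 0.40). With few candidate partners at each stage, this check can neither show nor exclude a pairing. The smallest library, 0.916 in units of 1e6 counts, limits the precision for Snai1.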
